A study of Rattus norvegicus with 6 samples.

Results

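The genes of 10 cardiac transcription factors were followed in RNA from whole hearts: Gata4, Gata6, Nkx2-5, Tbx5, Tbx20, Hand2, Mef2a, Mef2c, Mef2d and Srf. These genes were chosen by name, as the non-control probes whose gene name on the array is one of these 10 symbols, out of 26316 genes on the array. Each of the 10 genes had 1 probe. The hearts came from 3 samples of animals given AACO and 3 samples of control animals, hybridised to 6 single-colour Agilent arrays. AACO is labelled as a traditional Chinese medicine solution, and its letters are not explained. The AACO animals received 0.386 µg/g once a day for 8 weeks, and the control animals received as much double-distilled water. Hearts were taken 24 h after the final dose in both groups. The series text states that all animals, controls included, had TAC, the usual abbreviation of transverse aortic constriction, an operation that overloads the left ventricle. It calls them mice, whereas the organism label is Rattus norvegicus and the array holds rat probes, so they were treated as rats. Strain, age and sex are not given in the sources used here, and no sample without TAC was analysed here. The series text mentions different donors for each experiment, but no label ties an array to an animal, so each p-value reflects only how much these 6 samples varied.

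These proteins bind DNA and act together on the genes of heart muscle. Gata4 and Gata6 are zinc finger proteins that bind GATA motifs, Nkx2-5 is a homeodomain protein, Tbx5 and Tbx20 are T-box proteins, and Hand2 is a basic helix-loop-helix protein. Mef2a, Mef2c, Mef2d and Srf share the MADS box, with which MEF2 proteins bind A/T-rich MEF2 boxes and Srf binds CArG boxes. In the adult heart the same factors take part in the growth response to pressure overload, in which class II histone deacetylases hold MEF2 back and calcium-dependent kinases release it.

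The probes of the 3 Mef2 genes carry the differences described further on, so their first 30 bases are shown. Capitals mark runs of at least 4 A or T bases.
Mef2a: TTTTTTAAAgAATAgcTTTATcttgTTTTA
Mef2c: ggccctaggaacaaccaatgtgcTTTActt
Mef2d: accccacttcctttcttctgctccatgtcc
The Mef2a probe stood out in base composition, with 80% A or T over its 60 bases. Among all non-control probes, 99.8% had a lower share. The Mef2c probe had 55.0% and the Mef2d probe 61.7%, and the other 7 probes lay between 46.7% (Nkx2-5) and 65.0% (Gata6).

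The array files place the probes on rat build rn4. The Mef2c probe lies at chr2:12329521-12329580 on the minus strand, the Mef2d probe at chr2:180246846-180246905 on the plus strand, and the Mef2a probe is listed as unmapped. Gata4 is read at chr15:42473004-42473063, Gata6 at chr18:2534368-2534427, Nkx2-5 at chr10:16608802-16608861, Tbx20 at chr8:24392876-24392935, Hand2 at chr16:36324365-36324424 and Srf at chr9:9797512-9797571. The Tbx5 probe spans chr12:37957220-37969093, 11874 bases of genome for 60 bases of probe. It therefore crosses at least 1 splice junction and reads spliced RNA, and for this reason it is shown whole, in lower case.
Tbx5: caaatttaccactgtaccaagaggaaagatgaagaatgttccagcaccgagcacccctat
For the other probes, whether they lie in coding sequence or in an untranslated region was not determined, because no rn4 annotation was used here.

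Promoters of 8 of the 10 genes were found in RefSeq on build GRCr8, those of Gata4 and Mef2c were not. In the 250 bases before each start, both strands were searched for the motifs of these families. The promoters of Srf and Mef2a hold boxes of MADS-box proteins and are shown with the boxes in capitals. The first is Srf, chr9:21923980-21924039 on the plus strand, 96 to 37 bases before the start. The second is Mef2a, chr1:130392178-130392217 on the minus strand, 55 to 16 bases before the start.
Srf: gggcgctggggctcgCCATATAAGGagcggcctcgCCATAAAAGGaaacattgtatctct
Mef2a: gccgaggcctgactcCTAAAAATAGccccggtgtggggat
The Srf promoter had 2 CArG boxes, which 1.497% of 33469 promoters held at least once. The Mef2a promoter had 1 MEF2 box, held by 0.523%. Hand2 had the only matches to AGATAA (the motif of the Gata proteins, in 10.299% of promoters) and CATCTG (an E-box, in 13.962%). Srf had the only match to TATAAA (the core promoter box of that sequence, in 12.931%), 37 to 32 bases before the start on the opposite strand. No match to TNAAGTG (an Nkx2-5 motif, in 9.893%) or AGGTGT (a T-box motif, in 11.575%) was found in the 8 promoters. No match overlapped another. These are matches of letters, and neither binding nor use of the boxes was measured.

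Between 65.99% and 72.4% of non-control spots were well above background on each array, with 71.8% ± 0.78 (SD, n = 3) on the AACO arrays and 67.5% ± 1.37 (n = 3) on the control arrays. Every AACO array was above every control array (exact permutation p = 0.1, which is as low as 3 against 3 can go). No non-control spot was saturated. All AACO arrays lay on 1 slide read in 1 scan and all control arrays on another, so slide and scan cannot be told apart from AACO in these results. The tissue label fitted its markers, since all 10 cardiomyocyte markers, among them Myh6, Tnnt2 and Ryr2, were well above background on all 6 arrays. In whole hearts, fewer cells of a type and less RNA per cell cannot be told apart.

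All 10 transcription factor genes were well above background on all 6 arrays. Values are log2 signals relative to the 75th percentile of the array, and a difference is AACO minus control with its standard error from limma. A gene is said to have risen or fallen where p, adjusted over all 17536 genes tested, was under 0.05. Among the 10, Mef2c rose and 0 fell, against 10.9% of all genes that differed in either direction, 5% that rose and 5.94% that fell. The count is therefore close to that of genes in general. Without adjustment, 4 of the 10 had p under 0.05, against 30.4% of all genes. The AACO and control values did not overlap for 4 of the 10, against 37.4% of all genes. Of these 4, Mef2c, Mef2a and Gata6 were higher with AACO, and 17.3% of all genes were higher without overlap. Mef2d was lower, except where the arrays were not scaled. The median difference was 0.05 over the 10 and −0.02 over all genes, and 5 of the 10 lay above 0, against 47.3% of all genes.

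**Figure D1:**
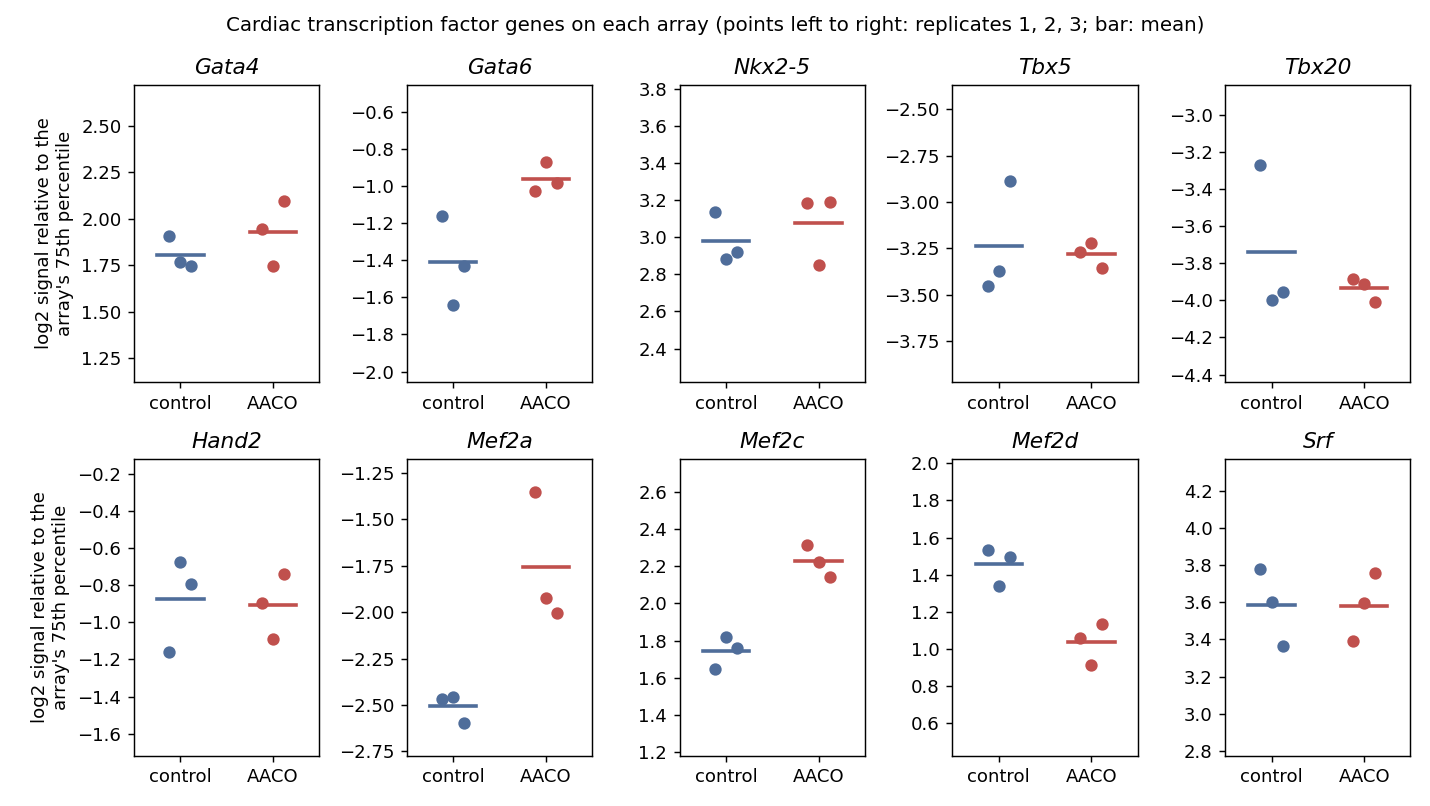
Log2 signal of each transcription factor gene relative to the array's 75th percentile, on the 3 control arrays (blue) and the 3 AACO arrays (red), with bars at the group means and an axis of its own for each gene. The groups do not overlap for Mef2c, Mef2a, Gata6 and Mef2d, and overlap for the other 6 genes.

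The 4 genes without overlap included Mef2a, Mef2c and Mef2d, and these did not move one way. The values of Mef2b, the other gene of the family, overlapped, with a difference of −0.10 ± 0.11 (adjusted p = 0.540). Mef2c, the family member needed for early heart development, read 2.31, 2.22 and 2.14 on AACO arrays 1 to 3 and 1.65, 1.82 and 1.76 on control arrays 1 to 3. Every AACO value was above every control value, with a gap of 0.32. Mef2c was 0.48 ± 0.10 higher with AACO, 1.40-fold (adjusted p = 0.0344), with a 95% interval from 0.24 to 0.73. Its probe is printed in 10 spots on each array, and the spots of an array had an SD of at most 0.09, as large as the SD of 0.09 between the arrays of either group. A separate probe named LOC685671, which the array file describes as similar to Mef2c and places at chr2:12265376-12265435 (rn4), was not well above background on any array and gives no second reading.

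The call for Mef2c did not hold in 5 of the 6 fits with 1 array left out. It was lost on leaving out AACO replicate 1 (adjusted p = 0.111), AACO replicate 2 (0.113), control replicate 1 (0.0745), control replicate 2 (0.0614) or control replicate 3 (0.093), and was kept without AACO replicate 3 (0.0403). The difference itself stayed between 0.44 and 0.53 in these 6 fits.

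Mef2a, the MEF2 protein that is most abundant in many adult tissues, read −1.35, −1.92 and −2.003 on the AACO arrays and −2.47, −2.46 and −2.59 on the control arrays. AACO replicate 1 was the highest and lay apart from the other AACO arrays, and the groups were separated by 0.46. The difference was 0.75 ± 0.19, 1.68-fold, and missed the threshold (adjusted p = 0.0520, 95% interval 0.30 to 1.19). It passed under 8 of 19 alternative analyses, among them quantile normalization (0.0452) and the deposited series matrix (0.0457). Its adjusted p ranged from 0.000622 to 0.459 over all 19. The lowest came without scaling of the arrays, where the median of all genes was 0.52. The next lowest was 0.0373, with an intensity trend in the prior variance.

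Mef2d, the MEF2 protein that takes part in stress-induced growth of the heart in mice, read 1.06, 0.92 and 1.14 on the AACO arrays and 1.53, 1.34 and 1.495 on the control arrays. Every AACO value was below every control value, with a gap of 0.20. The difference was −0.42 ± 0.11, 1.34-fold lower, and missed the threshold (adjusted p = 0.0572, 95% interval −0.68 to −0.16). Under 2 of the 19 alternatives it passed, with adjusted p 0.045 when only probes well above background on all 6 arrays were tested and 0.0329 with an intensity trend in the prior variance. Its adjusted p ranged up to 0.702, and the difference turned to 0.13 when the arrays were not scaled, an analysis that moved the median of all genes to 0.52.

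Differences between 2 genes on the same array do not change when all log2 values of an array are shifted alike. The family was therefore also read this way, over 4 pairs. Every AACO value of Mef2c and Mef2a was above, and of Mef2d below, the control values. The 2 pairs with Mef2d therefore had to separate the groups, and their p of 0.1 adds no support. The difference of Mef2c from Mef2d was 1.26, 1.31 and 1.01 on the AACO arrays and 0.11, 0.48 and 0.26 on the control arrays. It was larger on each AACO array than on any control array, by 0.90 in the mean, or 1.87-fold (exact permutation p = 0.1, the smallest that 3 against 3 can give; adjusted over the pairs 0.2). The difference of Mef2a from Mef2d was −2.41, −2.84 and −3.14 on the AACO arrays and −4.00, −3.80 and −4.09 on the control arrays. It shifted by 1.17 in the mean, or 2.25-fold, again without overlap (exact permutation p = 0.1, adjusted 0.2). For Mef2a against Mef2c, both of them higher with AACO, the shift was 0.26 and the groups overlapped (exact permutation p = 0.3, adjusted 0.3). The level of one probe says nothing about the level of another, and only the shift between the groups is read here.

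**Figure D2:**
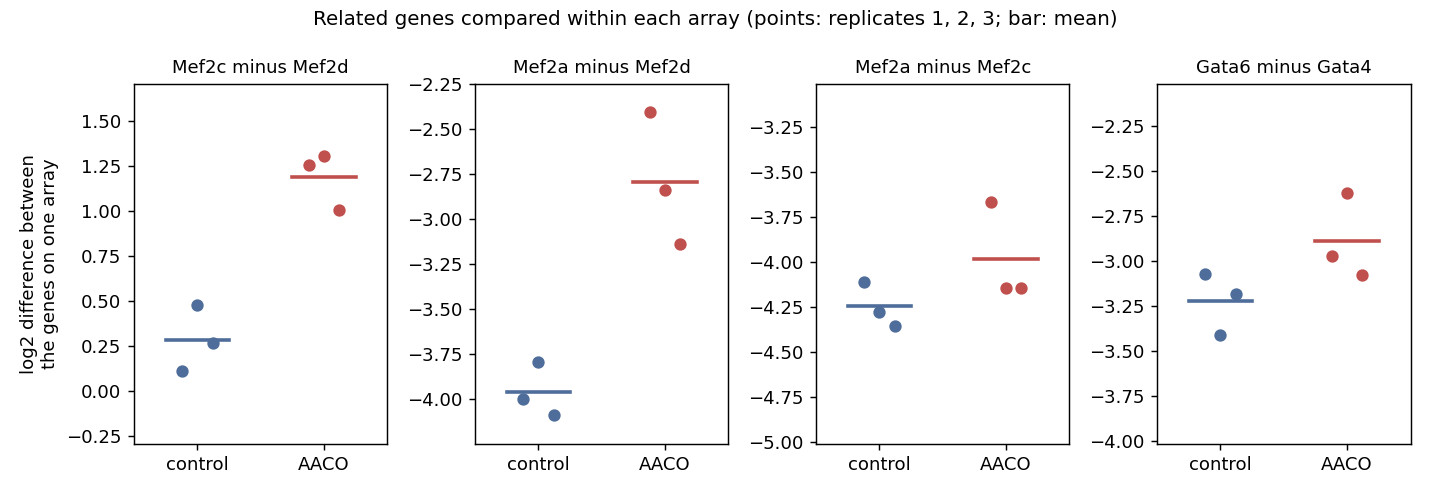
Log2 difference between 2 related genes on each array, for the 3 control arrays (blue) and the 3 AACO arrays (red), with bars at the group means. Mef2c against Mef2d and Mef2a against Mef2d are separated between the groups, while Mef2a against Mef2c and Gata6 against Gata4 overlap.

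The Mef2a difference was also set beside those of other genes by the base composition of the probe. Across all genes tested, the median difference was between −0.05 and 0.03 in each class of probes under 80% A or T. It was 0.46 among the 21 genes whose probe had 80% or more, Mef2a included. Without Mef2a, 18 of the other 20 genes lay above 0, against 47.3% of all genes, with a median of 0.42. Of the 20, 5 rose and 0 fell, against 5% and 5.94% of all genes. This split was chosen after the Mef2a sequence had been seen, and the part of base composition in the Mef2a difference was not tested. The Mef2c and Mef2d probes belong to classes with medians of −0.02 and −0.01.

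**Figure D3:**
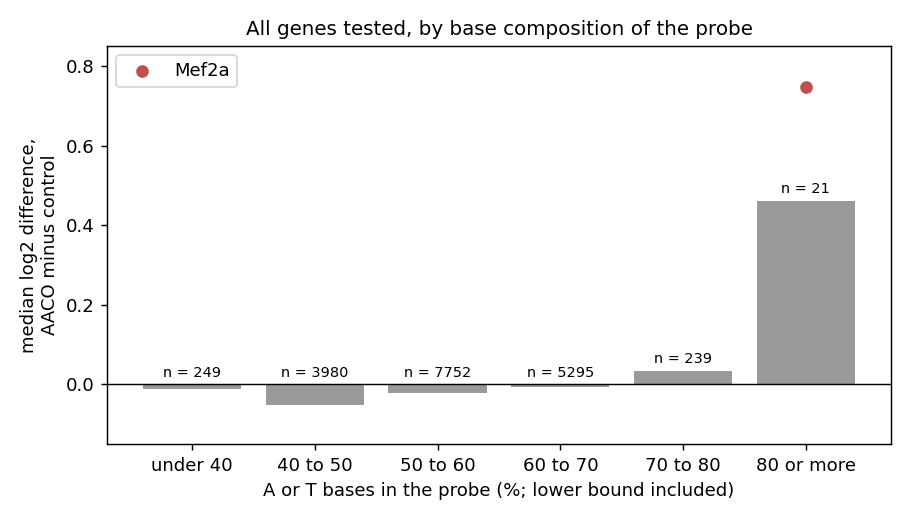
Median log2 difference, AACO minus control, over all genes tested, by the share of A or T bases in the probe, with the number of genes above each bar and Mef2a as a point. The medians lie near 0 up to 80% and at 0.46 in the last class of 21 genes.

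Gata4 and Gata6 bind the same motif and cover for each other in the developing heart. Gata4 read 1.94, 1.75 and 2.10 on the AACO arrays and 1.91, 1.77 and 1.75 on the control arrays, so the groups overlapped. Its difference was 0.12 ± 0.12 (adjusted p = 0.531), with a 95% interval from −0.17 to 0.42. Gata6 read −1.03, −0.87 and −0.98 on the AACO arrays and −1.16, −1.64 and −1.43 on the control arrays, with every AACO value above every control value by at least 0.14. Its difference of 0.45 ± 0.14, 1.37-fold, missed the threshold (adjusted p = 0.0907, 95% interval 0.11 to 0.79). It passed under 2 of the 19 alternatives, without scaling (adjusted p = 0.00924) and without control replicate 1 (0.0497), and its adjusted p ranged up to 0.521. The lowest of the Gata6 values, on control replicate 2, came from 2 spots with an SD of 0.59. Within the arrays, the difference of Gata6 from Gata4 was −2.97, −2.62 and −3.08 with AACO and −3.07, −3.41 and −3.18 in controls. Those values overlapped, with a shift of 0.33 (exact permutation p = 0.2, adjusted over the 4 pairs 0.267).

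Nkx2-5, a factor that marks heart muscle cells from early in development, read 3.18, 2.85 and 3.19 on the AACO arrays and 3.14, 2.88 and 2.92 on the control arrays. AACO replicate 2 was the lowest of all 6 arrays and AACO replicate 3 the highest. The difference was 0.09 ± 0.14 (adjusted p = 0.674), with a 95% interval from −0.24 to 0.43. Srf, which drives both contractile and immediate early genes, read 3.39, 3.59 and 3.76 with AACO and 3.78, 3.60 and 3.37 in controls. Both groups covered nearly the same range, and the 95% interval of the difference ran from −0.37 to 0.36 (adjusted p = 0.996).

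Tbx5, which partners Gata4 and Nkx2-5 and is needed for the atria and the conduction system, read −3.27, −3.22 and −3.35 with AACO and −3.45, −3.37 and −2.89 in controls. Control replicate 3 was the highest array, and the groups overlapped. The difference was −0.04 ± 0.17 (adjusted p = 0.878, 95% interval −0.44 to 0.35), and was 0.13 without control replicate 3. Tbx20, a T-box factor that the adult heart needs to keep its function, read −3.89, −3.91 and −4.01 with AACO and −3.27, −4.00 and −3.96 in controls. Control replicate 1 alone was high, from 2 spots with an SD of 0.39. The difference was −0.19 ± 0.21 (adjusted p = 0.560, 95% interval −0.69 to 0.30), and was 0.04 without control replicate 1.

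Hand2, needed for the right ventricle in the embryo, read −0.90, −1.09 and −0.74 with AACO and −1.16, −0.68 and −0.79 in controls, where both the highest and the lowest array belonged to the control group. The difference was −0.03 ± 0.16 (adjusted p = 0.913), with a 95% interval from −0.43 to 0.36. Over the 10 genes, extreme values were spread over the arrays. Control replicate 1 was the highest array for 3 genes and the lowest for 3, and AACO replicate 1 was the highest for 2 and the lowest for 0.

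**Figure D4:**
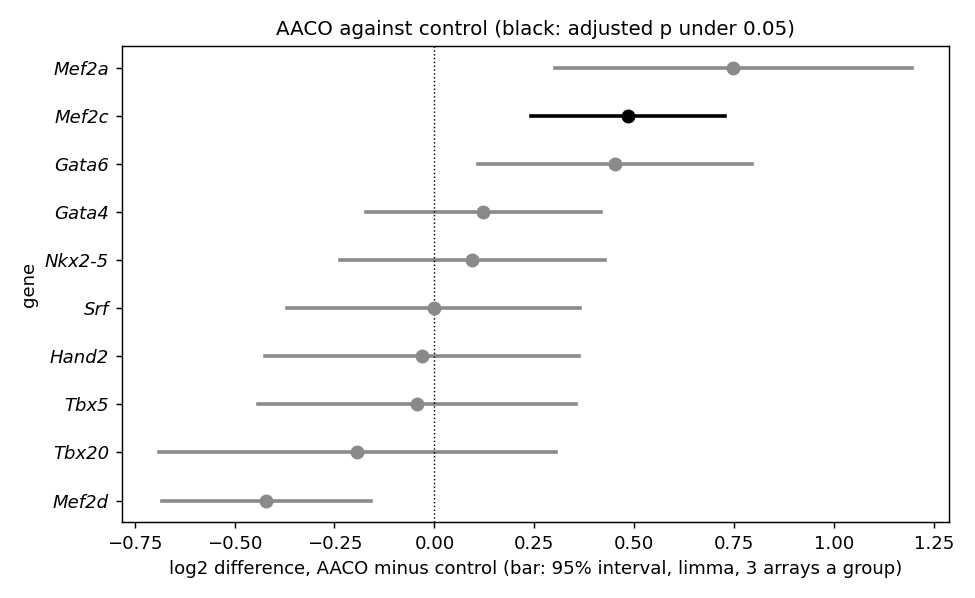
Log2 difference, AACO minus control, of the 10 transcription factor genes with 95% intervals from limma (3 arrays a group), in the order of the difference. The intervals of Mef2a, Mef2c, Gata6 and Mef2d exclude 0, and Mef2c (black) passed the threshold after adjustment over all genes.

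**Figure D5:**
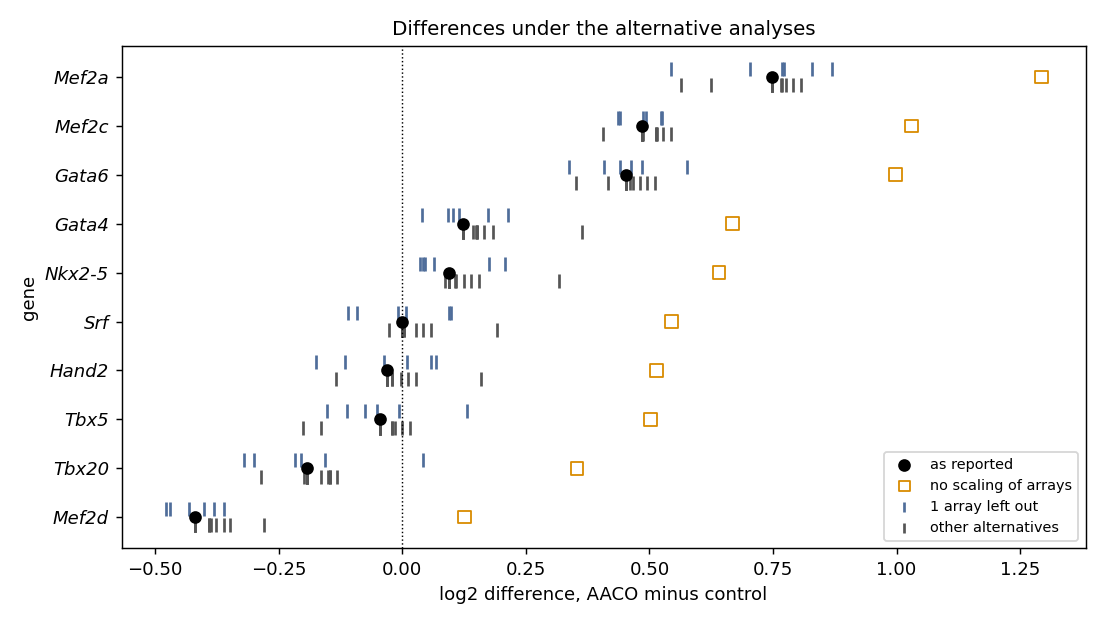
The same differences as reported (black circles), without scaling of the arrays (open squares), with 1 array left out (upper ticks) and under the other alternatives (lower ticks). Mef2a, Mef2c, Gata6, Gata4 and Nkx2-5 stay above 0 throughout, Mef2d is above 0 without scaling, and Srf, Hand2, Tbx5 and Tbx20 cross 0.

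By a measure of likeness over the 6 arrays, each gene centred on its own mean, the 3 named genes nearest to Mef2c among 12377 were Trpc2, Tmem41a and Pyy. Their root mean square differences from Mef2c were 0.034, 0.038 and 0.039 on the log2 scale. These 3 were picked for likeness on the same 6 arrays, so differences near that of Mef2c follow from the choice and add no support. The tested Trpc2 probe was 0.47 ± 0.10 higher with AACO (adjusted p = 0.0403) and the Tmem41a probe 0.48 ± 0.11 (adjusted p = 0.0441). The other Trpc2 probe was well above background on 0 arrays. For Pyy the brighter probe was 0.51 higher, while its other probe was 1.06 lower (−1.06), so the gene has no single pattern.

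Among 34 other transcription factor genes of the heart, 27 were tested, and 4 rose and 0 fell, with 13 above 0 and a median of −0.01. Over all genes, 5% rose, 5.94% fell and 47.3% lay above 0. This list and those below were chosen with earlier results of these data known, so their counts are descriptive only. Hey2, a Notch-responsive repressor of atrial genes in the ventricle, read −0.27, 0.21 and −0.24 on the AACO arrays and −1.35, −0.99 and −1.45 on the control arrays. It rose by 1.16 ± 0.19, 2.24-fold (adjusted p = 0.0177), and a second Hey2 probe differed by 1.25. Irx4, a homeobox factor of the ventricle, read 2.33, 1.96 and 1.70 with AACO and 1.32, 1.02 and 0.86 in controls, a rise of 0.93 ± 0.20 (adjusted p = 0.0356). The other 2 that rose are named after their values were seen, Gata5 (0.70 ± 0.16, adjusted p = 0.0419) and Tbx2 (0.43 ± 0.09, adjusted p = 0.0356), a repressor found in the atrioventricular canal. For Tead1, which reads the Hippo pathway in heart muscle, the difference was −0.18 ± 0.18 (adjusted p = 0.522).

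Hey2 and Irx4 also stand in the list of ventricular markers, of which 3 of 6 passed the test as higher, against 5% of all genes. The other is Kcnj2, which was well above background on 0 of 3 control arrays and differed by −0.19 with normexp background correction. The ventricular light chain gene Myl2, by contrast, differed by −0.19 ± 0.12 (adjusted p = 0.323). Of 6 atrial markers tested 1 rose and 0 fell, and 3 lay above 0. Their summed level was 229 to 368 with AACO and 230 to 359 in controls. Myl4 differed by −0.06 and Gja5 by −0.19, neither past the threshold. The atrial genes Myl7 and Sln, by contrast, were high on AACO replicates 1 and 2. Neither of them is the marker that rose, since neither passed the limma test (adjusted p = 0.0971 for Myl7 and 0.165 for Sln). Myl7 read 5.41, 6.85 and −0.44 with AACO and −1.66, −2.26 and −0.85 in controls. The mean of Myl7 and Sln was 3.69 and 5.64 on AACO replicates 1 and 2, −0.12 on AACO replicate 3, and between −1.35 and −0.39 on the control arrays (exact permutation p = 0.1 between the groups, the lowest this design allows). With this level as a covariate, the difference of Mef2c was 0.41 ± 0.15, against 0.48 ± 0.10 without it. It did not pass the threshold (adjusted p = 0.37), and 0 of the 17536 genes differed. The level was higher on every AACO array than on any control array, though AACO replicate 3 (−0.12) lay near control replicate 3 (−0.39). The covariate thus goes in part with the group. The fit therefore cannot separate the part of this level in the differences from that of AACO.

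Genes that control these factors or bind to them made up a list of 33, of which 27 were tested. Here 2 passed as higher and 1 fell, against 5% and 5.94% of all genes. The median was 0.11, with 21 above 0, against 47.3% of all genes. Of the 2 that passed as higher, Camk4 entered the test only through the AACO arrays. Zfpm2, also called FOG2, a protein that binds Gata4 and modulates it, read −2.40, −2.61 and −2.82 on the AACO arrays and −3.24, −3.23 and −3.28 on the control arrays. It rose by 0.64 ± 0.13, 1.56-fold (adjusted p = 0.0311). With normexp background correction its difference was 0.33 (adjusted p = 0.132), and the call was lost in 5 of the 6 fits with 1 array left out (adjusted p up to 0.106). Camk4, a calcium-dependent kinase that releases MEF2 from histone deacetylases, was well above background on the 3 AACO arrays and on no control array. It passed the test (adjusted p = 0.0126). The lower bound on its fold was 1.09, taken against the lowest signal well above background on each control array. Its difference was −0.08 with normexp background correction, so no rise is established. The adjusted p rests on control values that were not well above background. Prkd2, a protein kinase D gene named after its value was seen, fell by 0.42 on the log2 scale (adjusted p = 0.0391), with 0.12 where the arrays were not scaled.

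The deacetylases of class II did not pass the test. Hdac4 was 0.23 ± 0.11 higher without overlap (adjusted p = 0.213), and Hdac5 differed by 0.11 ± 0.21 (adjusted p = 0.742). The Hdac9 probe was not well above background on any array and was not tested. Myocd, the heart and smooth muscle coactivator of Srf, differed by 0.16 ± 0.14 (adjusted p = 0.467).

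Of 44 genes of heart muscle known as targets of these factors, 42 were tested, with a median of 0.00. In this list 4 passed as higher and 1 fell, against 5% and 5.94% of all genes. Of the 4, Kcnj2 entered the test only through the AACO arrays. Kcnh2, the gene of a repolarizing potassium channel, rose by 1.32 ± 0.12, 2.49-fold (adjusted p = 0.0063), and its other probe differed by 0.85. The other 3 are named after their values were seen. Chrm2, the muscarinic receptor gene of the heart, rose by 1.07 ± 0.20 (adjusted p = 0.0271), with 0.91 for its other probe. Cacna1c, the L-type calcium channel gene, rose by 0.48 ± 0.10 (adjusted p = 0.0322), but its other probe differed by 0.01. Kcnj2, an inward rectifier channel gene, passed the test (adjusted p = 0.0431), but 0 of 3 control arrays read it well above background. The bound on its fold, taken as for Camk4, was under 1, so no rise above background is shown.

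The natriuretic peptide genes, direct targets of Gata4, Nkx2-5 and Tbx5 and markers of a strained heart, varied widely. Nppa read 3.38, 6.07 and 6.48 with AACO and 5.61, 5.91 and 7.64 in controls, a difference of −1.07 ± 0.92 (adjusted p = 0.465). Nppb read 4.39, 5.31 and 6.95 with AACO and 6.91, 7.16 and 7.52 in controls, a difference of −1.65 ± 0.61 (adjusted p = 0.132). For both genes AACO replicate 1 was the lowest array, and AACO replicate 3 lay within the range of the control arrays.

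Of 24 immediate early and cytoskeletal genes that carry CArG boxes or respond to Srf, Srf itself among them, 23 were tested. In this list 1 rose and 1 fell, against 5% and 5.94% of all genes, with 14 above 0 and a median of 0.30. The list holds the smooth muscle genes Myh11 (0.54), Tagln (0.61), Cnn1 (0.77) and Acta2 (0.57), none past the threshold. The same genes stand among the 6 smooth muscle and pericyte markers, so the marker list is not a separate reading. The other markers are Pdgfrb (0.31) and Rgs5 (−0.40, lower without overlap), neither past the threshold. Of these 6 markers 5 lay above 0, with a median of 0.55, and their summed level was 10.98 to 15.5 with AACO and 9.83 to 11.1 in controls. Their part in the list's median was not tested. Ccn2, a matrix-associated protein also called connective tissue growth factor, read 1.76, 1.72 and 1.76 with AACO and 2.87, 3.22 and 3.35 in controls. It fell by 1.40 on the log2 scale, 2.64-fold (adjusted p = 0.0067). Tpm2, a tropomyosin gene, rose by 0.79 ± 0.17 (adjusted p = 0.0386), but its other probe differed by 0.13. Of 16 genes taken as MEF2 or stress response targets, 14 were tested, with 4 above 0 and a median of −0.15. Here 0 rose and 1 fell, against the same shares of all genes. Rcan1, which inhibits calcineurin and is induced by it, read 5.11, 5.03 and 6.05 with AACO and 6.89, 6.92 and 6.73 in controls. It fell by 1.45 on the log2 scale (adjusted p = 0.0274), and its other probe differed by −2.24. The call was lost in 5 of the 6 fits with 1 array left out (adjusted p up to 0.0975), and adding the Myl7 and Sln level to the model gave a difference of −0.70. Xirp1, an actin-binding gene under MEF2 control, differed by −0.43 ± 0.13 without overlap and did not pass (adjusted p = 0.0806). Some genes stand in several of these lists. Of the 17 genes outside the 10 that passed the test and are named here, Kcnh2 and Ccn2 kept the call in each of the 6 fits with 1 array left out. The other 15 lost it in 2 to 6 of these fits, and each of the 15 lost it without AACO replicate 1 and without AACO replicate 2.

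Markers of some other cell types moved with the groups, and the summed levels of others overlapped. Of 8 macrophage markers 7 fell and 0 rose, against 5.94% and 5% of all genes. Their summed level, as linear signals relative to the 75th percentile, was 9.75 to 11.9 with AACO and 22.0 to 29.8 in controls. Of 7 endothelial markers 5 were lower and 0 higher without overlap, and 0 passed, with summed levels of 31.8 to 33.7 and 37.5 to 40.9. Among 5 markers of nerve and Schwann cells 1 rose, with 2.12 to 7.82 against 0.872 to 2.25. Cardiomyocyte markers summed to 1787 to 2029 with AACO and 1653 to 2401 in controls, and 0 of 10 passed. Fibroblast markers summed to 60.6 to 83.6 with AACO and 70.3 to 102 in controls, and 0 of 8 passed. Of the 6 smooth muscle and pericyte markers, 3 were higher and 1 lower without overlap, and 0 passed the threshold. Over all genes, 37.4% did not overlap in either direction, and 17.3% were higher without overlap. Mef2c is also transcribed in macrophages and endothelial cells. The part of the cell makeup in the differences of Mef2c, Mef2a, Gata6 and Mef2d was not tested.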

How the data were processed

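The scanner software was Agilent Feature Extraction 10.7.1.1, per the file headers. Its processed signal, a deposited intensity, was background-corrected but unscaled. A series matrix was also deposited, in log2, with unstated normalization. Its columns correlated with log2 scanner signals at r between 0.998 and 0.99998, and each had a median of 6.7708673, so scale and direction were taken as those of the scanner values. Control spots and spots marked as outliers were dropped, and spots of 1 probe averaged. Values were log2 of the signal minus the array's 75th percentile. Of 30367 probes, 20112 were well above background on at least 3 arrays, and the brightest probe stood for a gene. Accessions gave 18005 probes a RefSeq symbol. Groups of 3 were compared over 17536 genes with limma 3.58.1 in R 4.3.3 (lmFit, eBayes, two-sided, Benjamini-Hochberg), after the code was tested on simulated data. Named were the 10 genes, the 2 of smallest p in each list, 11 genes set by name and the 3 most like Mef2c. Of these, 1 gene is not reported here. The members and lists were chosen with earlier results of these data known. Alternatives changed scaling, background correction, filter, probe choice, prior variance, covariate and arrays.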

Additional observations from a re-analysis of the deposited data

How the results depend on the processing

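Mef2c, Mef2a, Gata6, Gata4 and Nkx2-5 were higher with AACO under all 19 alternatives, 1 of which, the 75th percentile over spots, was chosen after seeing the data. Of the 10 transcription factor genes, 2 rose under quantile normalization, median scaling, the series matrix, the filter to all 6 arrays, the intensity trend and the 75th percentile over spots, 3 without scaling and 0 with the Myl7 and Sln covariate. The number that fell was 1 (Mef2d) with the filter to all 6 arrays and with the intensity trend. With 1 array left out, 0 to 2 rose and 0 fell. Over all genes, 876 rose and 1041 fell (45.7% rises). Without scaling these were 5493 and 232 (95.9%), with the covariate 0 and 0, with normexp 2024 fell (27.8% rises) and with no filter 2978 fell (23.1%). The 75th percentile over spots gave 56.1% rises. With 1 array left out, 104 to 959 rose and 189 to 1225 fell, the fewest without AACO replicate 2 (35.5% rises). Low counts also came without AACO replicate 1 (166 and 283) and control replicate 3 (318 and 394), and 617 fell without control replicate 2.

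Signs turned as follows. Without scaling, differences were 0.50 for Tbx5, 0.35 for Tbx20, 0.51 for Hand2, 0.13 for Mef2d, 0.54 for Srf, 0.11 for Xirp1, 0.35 for Myl2, 0.37 for Tead1 and 0.12 for Prkd2. The 75th percentile over spots gave 0.016 for Tbx5, 0.028 for Hand2 and 0.058 for Srf, and that over probes detected on all arrays 0.011 for Hand2 and 0.042 for Srf. The covariate gave 0.16 for Hand2, 0.19 for Srf, 0.23 for Tead1 and −0.35 for Sln. Srf was 0.0031 with quantile normalization, 0.027 with median scaling and 0.0035 in the series matrix. Normexp gave −0.078 for Camk4 and −0.19 for Kcnj2, and the mean of probes −0.27 for Pyy. With 1 array left out, Tbx5 ranged from −0.15 to 0.13, Tbx20 from −0.32 to 0.043, Hand2 from −0.17 to 0.069, Srf from −0.11 to 0.10, Hdac5 from −0.0066 to 0.33 and Tead1 from −0.31 to 0.00021. The cause was not tested. A slide block could not be fitted, since each slide held 1 group. No paired analysis was possible because the titles of the 2 groups share no replicate numbers. With 3 arrays a group, their number limits the precision.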
